A study of Mus musculus with 12 samples.

Results

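The 9 genes described here encode the salt-inducible kinases (SIKs) and the proteins directly above and below them in the pathway. They are *Sik1*, *Sik2* and *Sik3*, the LKB1 complex genes *Stk11*, *Strada* and *Cab39*, and the CREB-regulated transcription coactivator (CRTC) genes *Crtc1*, *Crtc2* and *Crtc3*. They were taken by gene symbol from the 55401 gene identifiers quantified in each mouse, and all 9 were among the 14159 genes that passed the filter on low counts. RNA was sequenced from whole kidneys of 12 male C57BL6 mice, with 1 library per mouse and no genotype other than the strain in the labels. The 6 control mice received vehicle, 15% 2-hydroxypropyl-beta-cyclodextrin, and the other 6 mice received SK-124, a small-molecule inhibitor of SIK2 and SIK3 that the study describes as weak on SIK1. Both were given as 1 intraperitoneal injection, SK-124 at 40 mg/kg, to mice 8 weeks of age. The time between injection and collection of these libraries is not given in the sources used here. The comparison asked what a SIK inhibitor did to the mRNAs of its own targets and of the proteins that act on or through them.

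LKB1, a kinase encoded by *Stk11*, works in a complex with the pseudokinase STRAD and the scaffold protein MO25, and switches on the SIKs and other AMPK-related kinases by phosphorylating their activation loop. Active SIKs phosphorylate CRTCs, which are then held in the cytoplasm by 14-3-3 proteins. Signals that raise cAMP, such as parathyroid hormone in the renal tubule, activate PKA, which phosphorylates SIKs and lowers their action on substrates, and CRTCs that lose their phosphates enter the nucleus and act with CREB on genes with cAMP-response elements. *Sik1* is itself a known cAMP-induced gene, whereas *Sik2* and *Sik3* are usually described as more constant in level.

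All 3 SIK mRNAs were higher in SK-124–treated kidneys, whereas no gene of the LKB1 complex and no CRTC gene passed the test in either direction. *Sik1* rose 1.74-fold, *Sik2* 1.57-fold and *Sik3* 1.41-fold. Differences were tested in edgeR by quasi-likelihood, and p-values were adjusted by Benjamini-Hochberg (FDR) across the 14159 genes. Of the 9 members, 3 were higher and 0 were lower at an FDR under 0.05. Of all genes tested, 24.4% passed that threshold in either direction and 10.8% passed it as higher with SK-124. The 6 genes outside the SIKs had 95% intervals of the fold change between 0.856 and 1.148. None of these 6 genes had an unadjusted p under 0.05 with edgeR, DESeq2 called 0 of them, and limma on TPM called 0, with 1 of 6 at an unadjusted p under 0.05.

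The promoter windows of *Sik3* and *Sik2* are shown because both genes rose and both lie on chromosome 9, where 4.67 Mb separate them. Each window is the 250 bases before the RefSeq start (GRCm38.p6), read 5′ to 3′ on the gene's own strand. Capitals mark TGACG, the shorter form of the cAMP-response element, searched on both strands (TGACG or CGTCA).

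Sik3 (chr9:46012570-46012819, plus strand): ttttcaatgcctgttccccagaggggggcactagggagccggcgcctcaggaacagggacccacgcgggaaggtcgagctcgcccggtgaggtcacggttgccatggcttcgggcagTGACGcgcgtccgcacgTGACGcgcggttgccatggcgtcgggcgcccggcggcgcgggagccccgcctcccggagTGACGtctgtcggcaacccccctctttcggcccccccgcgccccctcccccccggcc

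Sik2 (chr9:51009074-51009323, minus strand): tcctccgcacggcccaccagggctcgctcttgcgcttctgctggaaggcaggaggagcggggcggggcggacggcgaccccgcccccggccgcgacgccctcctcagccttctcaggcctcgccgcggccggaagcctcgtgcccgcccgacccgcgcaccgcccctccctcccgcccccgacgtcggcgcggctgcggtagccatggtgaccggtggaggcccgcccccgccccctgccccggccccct

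The *Sik3* window held TGACG 3 times, at 133, 116 and 57 bases before the start, and the *Sik2* window held none. Of the 7 members with a window in the reference table, *Stk11* was the other with a match, 1 at 218 bases before its start, and none held the full 8-letter element TGACGTCA. Of all 32851 windows of this length, 17.8% held TGACG on either strand and 1.55% held TGACGTCA, which contains TGACG. These letters are a description of the windows and not a measure of factor binding. Windows of *Sik1* and *Crtc2* were not used here.

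*Sik1* (ENSMUSG00000024042.7) lies on chromosome 17 from 31844250 to 31855804 on the minus strand (GENCODE M21, GRCm38) and encodes the cAMP-inducible member of the family. In CPM, read counts scaled to library size by TMM, the 6 vehicle-treated mice had 40.2, 36.4, 46.7, 41.7, 52.2 and 48.8, with a lowest value of 36.4, a median of 44.2 and a highest of 52.2. The 6 SK-124–treated mice had 55.1, 86.2, 84.99, 82.2, 70.2 and 83.8, with a lowest value of 55.1, a median of 83.0 and a highest of 86.2. The groups did not overlap, and SK-124 mouse 1 stood lowest of its group, just above the highest control. The log2 fold change was 0.80 (SE 0.11, FDR = 2.86e-05, edgeR), and 2.53% of all genes tested had a log2 fold change at least as large and upward.

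*Sik2* (ENSMUSG00000037112.16) lies on chromosome 9 from 50892801 to 51009073 on the minus strand and encodes a SIK best known from fat and liver, which SK-124 is made to inhibit. Vehicle-treated mice ranged from 12.1 to 21.5 CPM with a median of 18.5, and SK-124–treated mice from 24.8 to 32.6 CPM with a median of 27.5. Every treated mouse was above every control, and vehicle mouse 3 was the lowest of all. The log2 fold change was 0.65 (SE 0.11, FDR = 0.000299, edgeR). *Sik2* shares 1429 exonic bases with *Ppp2r1b*, a scaffold subunit of protein phosphatase 2A on the opposite strand. *Ppp2r1b* had a log2 fold change of 0.61 (SE 0.06, FDR = 1.3e-06, edgeR). The sources used here do not state whether counting used strand. RSEM's mapping SD, its uncertainty in assigning reads, was 0 counts for both *Sik2* and *Ppp2r1b* in all 12 mice, so no read was divided between them. It does not show from which gene a read in the shared bases came. The part of the shared bases in either rise was not tested.

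*Sik3* (ENSMUSG00000034135.15) lies on chromosome 9 from 46012820 to 46224194 on the plus strand and encodes the longest of the SIKs, the other intended target of SK-124. Vehicle-treated mice ranged from 63.9 to 85.7 CPM with a median of 82.1, and SK-124–treated mice from 102 to 127 CPM with a median of 109. The groups did not overlap, and vehicle mouse 3 was again the lowest control. The log2 fold change was 0.49 (SE 0.07, FDR = 6.9e-05, edgeR).

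**Figure D1:**
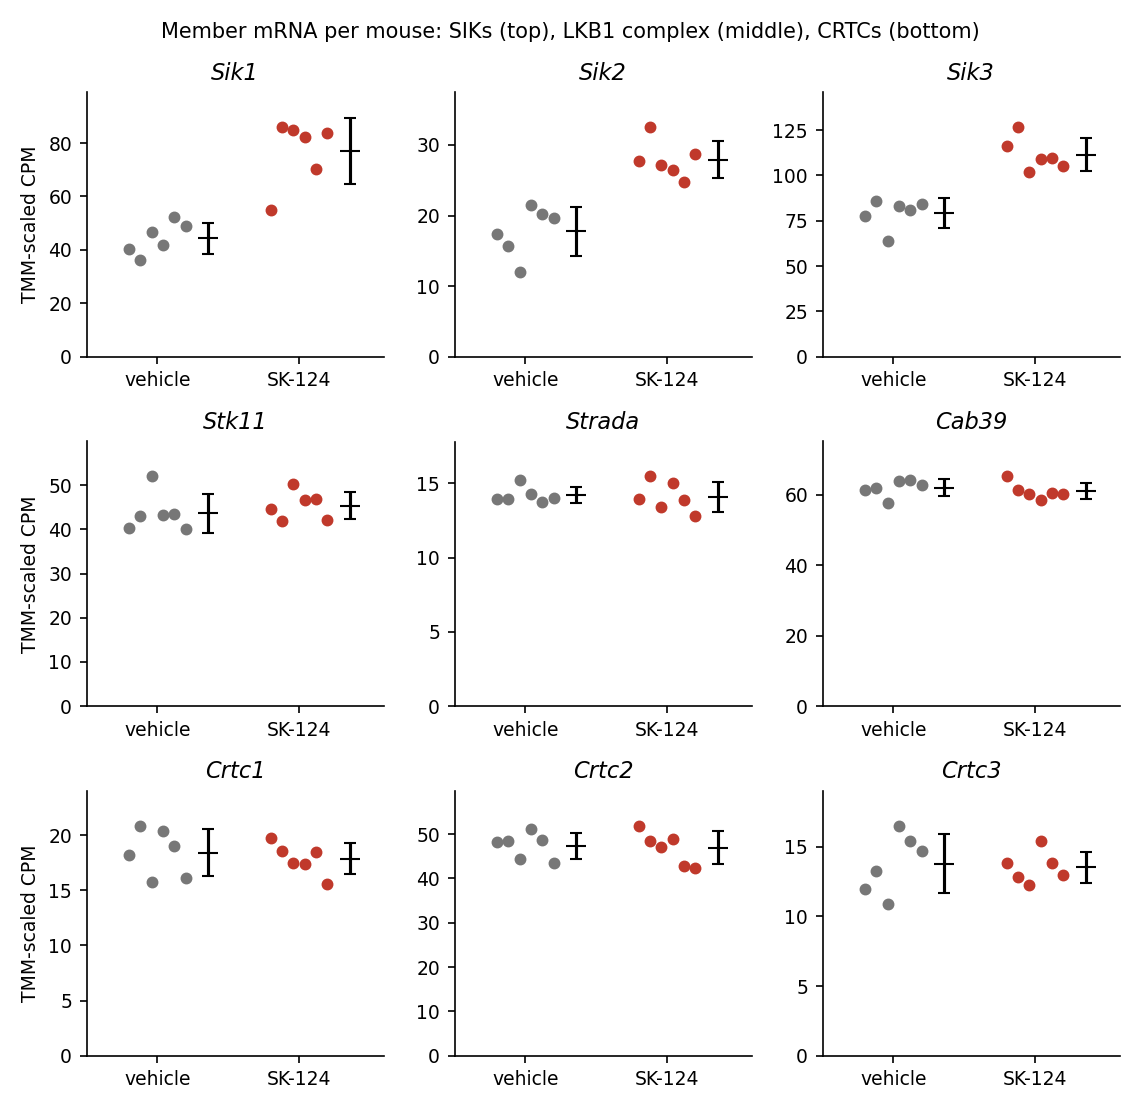
TMM-scaled CPM (y axis, from 0) of the 9 members in each mouse, with vehicle in grey and SK-124 in red (6 mice each); the bar beside each group is the mean ± SD. For *Sik1*, *Sik2* and *Sik3* all 6 treated mice lie above all 6 controls, and for the other 6 genes the groups overlap.

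Each SIK gave a p of 0.00216 in a two-sided exact permutation test of the difference in log2(CPM + 0.5), the smallest value that all reassignments of 6 and 6 mice can give, and 0.0167 after Benjamini-Hochberg adjustment over all genes tested. Of all genes tested, 6.32% had all treated mice above all controls. The share of counts taken by the 10 most abundant genes differed among treated mice, at 44.4% to 46.8% in SK-124 mice 1 to 3 and 38.6% to 40.2% in mice 4 to 6, against 39.9% to 43.2% in controls. The 3 SIKs passed the test in each set of treated mice on its own against all 6 controls. Of all genes, 2298 of 14512 were called in either direction with mice 1 to 3, and 2446 of 14621 with mice 4 to 6. Both fits used the same controls, and every treated mouse was above them, so they are not separate support. *Sik1* had a log2 fold change of 0.77 with mice 1 to 3 and 0.83 with mice 4 to 6, *Sik2* of 0.72 and 0.59, and *Sik3* of 0.54 and 0.45. In bulk tissue, more cells of a type and more RNA per cell cannot be told apart.

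The SIK rise was less sharply separated on TPM, the authors' unit per transcript length, than on CPM. On TPM, 5 of 6 treated mice were above the highest control for *Sik1*, 6 of 6 for *Sik2* and 5 of 6 for *Sik3*. The *Sik1* exception was SK-124 mouse 1, with a TPM of 9.79 inside the control range of 7.87 to 11.99. The median log2 fold change over all genes was −0.14 on log2(TPM + 0.1) and −0.11 on log2(TPM + 1), against −0.01 with TMM. The part of this shift in the weaker separation was not tested.

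Of the LKB1 complex, *Stk11* (ENSMUSG00000003068.17) encodes LKB1, the kinase that activates the SIKs. It is placed on chromosome 10 from 80115803 to 80130682 on the plus strand by the earlier version of its identifier in GENCODE M21. *Stk11* ranged from 40.04 to 52.1 CPM in vehicle-treated mice and from 42.0 to 50.2 CPM in SK-124–treated mice, and all 6 treated mice lay inside the control range. Its log2 fold change was 0.06 (SE 0.07, FDR = 0.61, edgeR). *Stk11* shares 232 exonic bases with *Cbarp* on the opposite strand, a gene with a mean TPM of 2.07 in controls and a log2 fold change of 0.64 (FDR = 0.00038, edgeR). The mapping SD was 0 for both of these genes in all 12 mice.

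*Strada* (ENSMUSG00000069631.14) encodes the pseudokinase STRADα that turns LKB1 into its active form, and lies on chromosome 11 from 106163330 to 106202168 on the minus strand. It ranged from 13.8 to 15.2 CPM in controls and from 12.8 to 15.5 CPM in treated mice, with a log2 fold change of −0.01 (SE 0.06, FDR = 0.92, edgeR). *Strada* overlaps *Ccdc47* on the same strand by 158 exonic bases, and its expected counts were fractional, with a mapping SD from RSEM of 0.34 to 0.88 counts per mouse. The other 8 members had a mapping SD of 0 in all 12 mice.

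*Cab39* (ENSMUSG00000036707.16) encodes MO25α, the scaffold that holds LKB1 and STRAD together, and lies on chromosome 1 from 85793441 to 85851576 on the plus strand. It ranged from 57.7 to 64.3 CPM in controls and from 58.4 to 65.3 CPM in treated mice. Its log2 fold change was −0.02 (SE 0.05, FDR = 0.757, edgeR), the narrowest error among the 9 genes.

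Of the CRTCs, *Crtc2* (ENSMUSG00000027936.18) encodes the coactivator best known for fasting gluconeogenesis in liver and lies on chromosome 3 from 90254163 to 90264125 on the plus strand. It ranged from 43.5 to 51.2 CPM in controls and from 42.3 to 51.9 CPM in treated mice, with a log2 fold change of −0.02 (SE 0.06, FDR = 0.884, edgeR). *Crtc1* (ENSMUSG00000003575.13), the coactivator best known from neurons, lies on chromosome 8 from 70382355 to 70439579 on the minus strand. It ranged from 15.8 to 20.9 CPM in controls and from 15.6 to 19.7 CPM in treated mice, with a log2 fold change of −0.04 (SE 0.08, FDR = 0.745, edgeR). *Crtc3* (ENSMUSG00000030527.15), a coactivator linked to fat tissue, lies on chromosome 7 from 80586627 to 80688877 on the minus strand. It ranged from 10.9 to 16.5 CPM in controls and from 12.3 to 15.4 CPM in treated mice, with a log2 fold change of −0.03 (SE 0.09, FDR = 0.868, edgeR). For all 3 genes the groups overlapped, and an FDR above the threshold does not show that the levels were equal.

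Per transcript length, the members spanned a wide range of levels in control kidneys. The mean TPM was 29.2 ± 2.22 (SD, n = 6) for *Stk11*, 21.4 ± 1.43 for *Crtc2*, 16.8 ± 2.28 for *Cab39* and 13.5 ± 1.63 for *Sik3*. It was 9.64 ± 1.66 for *Sik1*, 7.19 ± 0.292 for *Strada*, 4.44 ± 0.955 for *Sik2*, 4.32 ± 0.9747 for *Crtc1* and 3.25 ± 1.09 for *Crtc3*. Each neighbour in this order held its place in all 6 control mice except *Sik2* and *Crtc1*, which differed by 0.123 ± 0.922 TPM within a mouse, with *Sik2* above in 3 of 6. After SK-124 the order changed at *Cab39*: *Sik3* had a mean of 16.8 ± 1.57 TPM, *Sik1* of 15.1 ± 2.87 and *Cab39* of 14.9 ± 2.08. *Cab39* was above *Sik3* in 6 of 6 control mice and in 0 of 6 treated mice. *Sik2* reached 6.32 ± 0.726 TPM and *Strada* 6.40 ± 0.752, with *Strada* above in 2 of 6 treated mice.

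**Figure D2:**
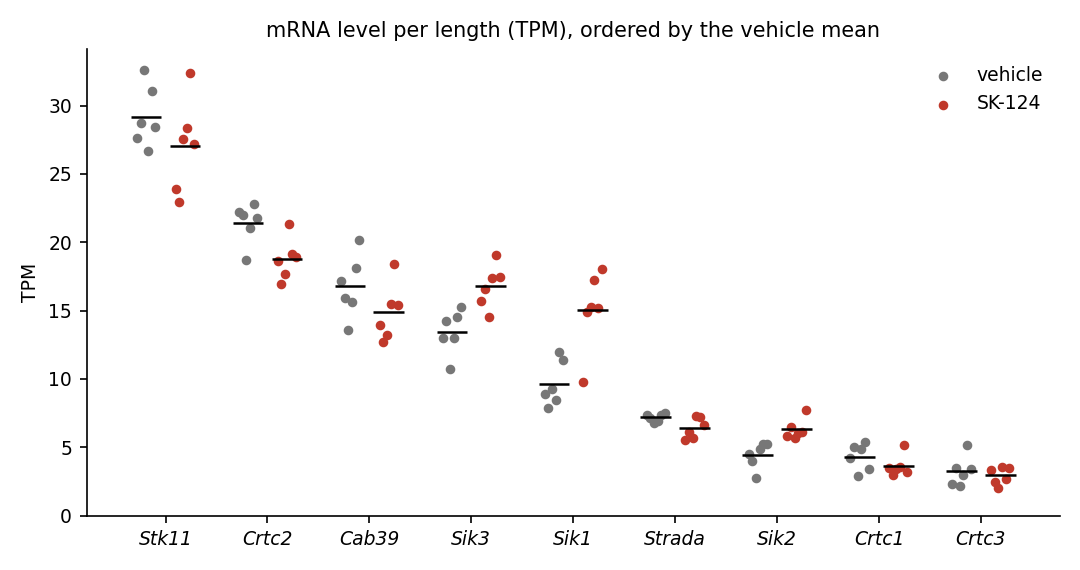
TPM (y axis) of the 9 members in each mouse, ordered by the control mean, with vehicle in grey, SK-124 in red and the group mean as a black line. *Sik3*, *Sik1* and *Sik2* move up in the treated mice, and the *Cab39* mean falls below those of *Sik3* and *Sik1*.

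Among the SIKs, *Sik3* held 49.0% ± 3.0 (SD, n = 6) of the summed TPM in controls, *Sik1* 34.99% ± 3.9 and *Sik2* 16.0% ± 2.2. In treated mice *Sik3* held 44.2% ± 3.8, *Sik1* 39.2% ± 4.4 and *Sik2* 16.6% ± 1.5. The *Sik3* share was below the lowest control in 4 of 6 treated mice, and the *Sik1* share was above the highest control in 3 of 6. These shares are a description without a test. The summed SIK level was 27.5 ± 3.61 TPM in controls and 38.2 ± 4.24 TPM in treated mice, and 5 of 6 treated mice were above the highest control. *Crtc2* made up 74.2% ± 3.8 of the CRTC TPM in controls and 74.1% ± 2.0 in treated mice. *Crtc1* held 14.8% and 14.3%, and *Crtc3* 11.05% and 11.5%, in the same order of groups.

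**Figure D3:**
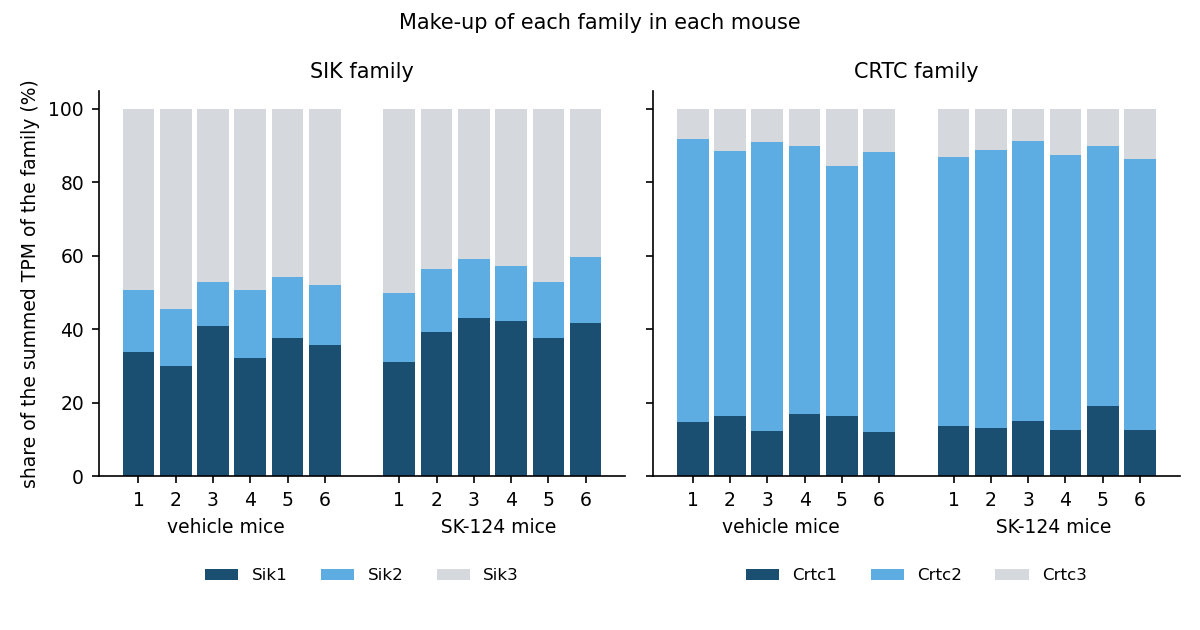
Share of the summed TPM of the SIK family (left) and the CRTC family (right) held by each gene, in percent, 1 bar per mouse. *Sik3* is the largest SIK share in every control and *Crtc2* the largest CRTC share in all 12 mice.

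A shift between long and short transcripts of a gene would appear in the gene's mean transcript length, which RSEM weights by the estimated abundance of each isoform. None of the 9 members was called for it between groups (limma on log2 length over 12054 genes; lowest FDR 0.961, lowest unadjusted p 0.289). Of all genes tested for length, 5 passed an FDR under 0.05 and 5.77% had an unadjusted p under 0.05. *Sik1* and *Crtc2* had narrow bounds, with 95% intervals of the length difference of −1.37% to 1.56% and −1.28% to 3.99%. *Crtc3* was poorly determined, with a mean length between 3109.5 and 5110.06 bases among controls and an interval of −22.3% to 19.9%.

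The other kinases that LKB1 activates moved in both directions. Of 11 such genes, 10 passed the filter on low counts, 2 were higher, 3 were lower and 5 were not called, with a median log2 fold change of −0.00 beside −0.01 for all genes. Over all genes tested, 24.4% were called in either direction and 10.8% as higher. *Nuak2*, an AMPK-related kinase linked to the actin cytoskeleton, fell from 54.5 ± 12.4 to 12.7 ± 1.37 CPM (log2 fold change −2.10, SE 0.14, FDR = 5.74e-09, edgeR). *Nuak1*, its close relative, fell from 10.4 ± 1.61 to 3.83 ± 0.758 CPM (log2 fold change −1.44, SE 0.13, FDR = 3.56e-07, edgeR). *Nuak2* ranged from 35.4 to 66.3 CPM in controls and from 10.9 to 14.7 CPM in treated mice. *Nuak1* ranged from 8.37 to 12.8 CPM and from 2.86 to 4.80 CPM, in the same order of groups. *Snrk* rose (log2 fold change 0.46, FDR = 0.000244, edgeR) and so did the microtubule-affinity kinase gene *Mark3* (0.27, FDR = 0.000795), while *Mark2* was lower by a small margin (−0.18, FDR = 0.0439). *Mark3* was not called with library totals (FDR = 0.103), *Mark2* was not called without vehicle mouse 5 (FDR = 0.0901), and limma on TPM called only the NUAK genes of this list. *Prkaa1* and *Prkaa2*, the AMPK catalytic subunits, had log2 fold changes of 0.08 and 0.09, and neither was called.

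**Figure D4:**
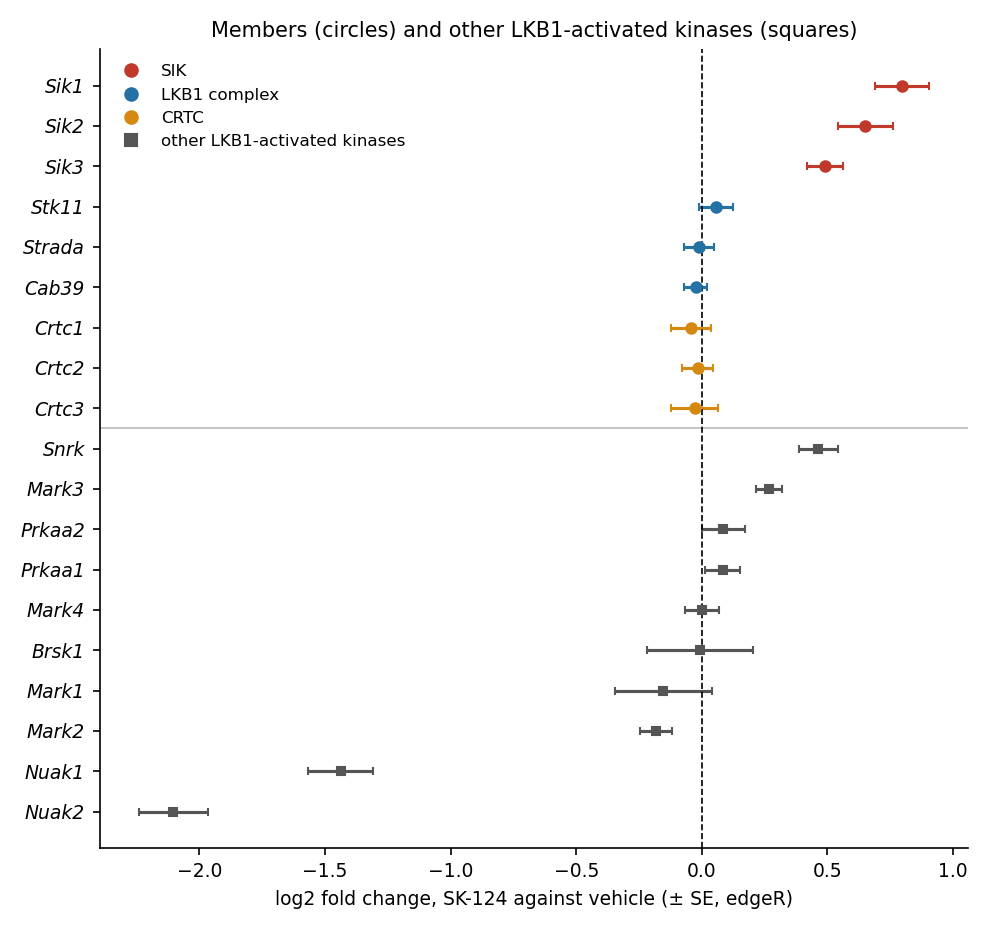
Log2 fold change of SK-124 against vehicle (x axis, ± SE, edgeR) for the 9 members (circles, by family) and for 10 other LKB1-activated kinases (squares). *Sik1*, *Sik2* and *Sik3* lie between 0.49 and 0.80, the LKB1 complex and CRTC genes lie near 0, and *Nuak1* and *Nuak2* lie at −1.44 and −2.10.

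Close relatives of the LKB1 partners, *Stradb* and *Cab39l*, gave 0 calls in either direction (log2 fold changes −0.13 and −0.06). *Stradb* had an unadjusted p under 0.05 with edgeR (0.0487), DESeq2 called 0 of the 2 and limma on TPM called 1 lower. The 7 genes for 14-3-3 proteins, the cytoplasmic anchors of phosphorylated CRTCs, had a median of 0.07. Of them, 2 were higher and 0 were lower, beside 10.8% higher among all genes tested. These were *Ywhaz* (244 ± 29.8 to 336 ± 29.9 CPM, log2 fold change 0.46, FDR = 0.000277, edgeR) and *Ywhah* (0.24, FDR = 0.00231), of which *Ywhah* was not called with library totals (FDR = 0.208). Of 5 genes for subunits of calcineurin, the phosphatase that acts on CRTCs, 4 passed the filter and 0 were called in either direction by edgeR, DESeq2 or limma, with 2 at an unadjusted p under 0.05 with edgeR. Without vehicle mouse 3, 1 calcineurin gene was called higher, and with library totals 1 was called lower.

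Of 5 genes for nuclear partners of the CRTCs, 1 was higher: *Crem*, a CREB relative that is itself induced by cAMP, at 5.11 ± 0.671 CPM in controls and 17.1 ± 1.91 in treated mice (log2 fold change 1.74, SE 0.09, FDR = 5.5e-10, edgeR). *Creb1* and *Atf1*, the DNA-binding partners, had log2 fold changes of −0.04 and 0.01, and neither was called. Among all genes tested, 10.8% were called higher. 

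Textbook targets of CREB and CRTC were mostly higher. Of 17 genes, *Crem* included, 15 rose, 0 fell and 2 were not called, with a median log2 fold change of 1.74. The share called higher over all genes tested was 10.8%. This list was chosen with earlier results of these data known, so its count beside that share is a description and not a test. *Nr4a3*, an orphan nuclear receptor, was at 0.161 ± 0.115 CPM in controls and 6.25 ± 1.74 CPM in treated mice (log2 fold change 5.20, SE 0.32, FDR = 3.26e-09, edgeR). *G6pc*, the last enzyme of gluconeogenesis, rose from 301 ± 44.4 to 1090.4 ± 146 CPM (log2 fold change 1.86, FDR = 6.75e-10, edgeR). *Cebpb*, a transcription factor gene, rose from 15.1 ± 2.60 to 61.5 ± 12.2 CPM (log2 fold change 2.02, FDR = 7.31e-09, edgeR). The genes not called were *Fos* and *Fosb*, for which vehicle mouse 5 had 27.1 and 3.18 CPM, above all other 11 mice. That mouse was also the highest control for other genes of the list, such as *Nr4a1* (22.9 CPM), *Junb* (55.4 CPM) and *Dusp1* (73.2 CPM). It was not the highest for *Nr4a3*, *Pck1* or *G6pc*. Without that mouse all 17 were called higher, *Fos* at a log2 fold change of 2.67 and *Fosb* at 3.60. That fit was added for the list after the data were seen. Leaving out the highest control favours higher calls, so it is a description only. The same mouse had the highest control level of *Sik1*, and without it *Sik1* had a log2 fold change of 0.85.

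**Figure D5:**
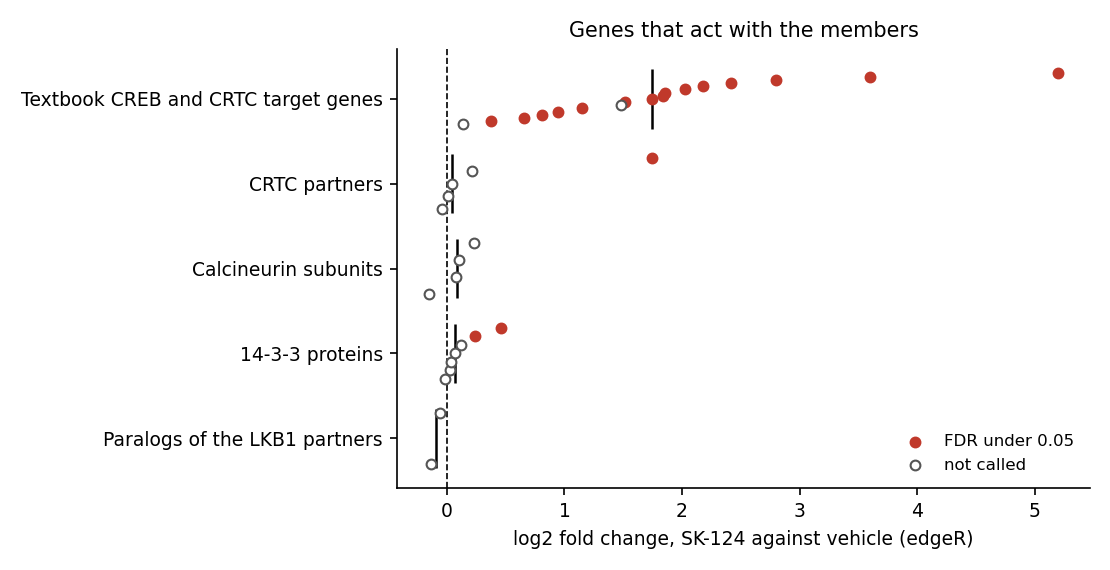
Log2 fold change of SK-124 against vehicle (x axis, edgeR) for genes that act with the members, 1 point per gene, filled where the FDR is under 0.05, with the median of each list as a black line. The CREB and CRTC target list has its median at 1.74, and the other 4 lists have theirs between −0.10 and 0.09.

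The 5 genes whose profile over the 12 mice was nearest to *Sik1* were chosen among 13007 others by the root mean square difference in log2(CPM + 0.5), after each gene's own mean was subtracted. They were *Klf13*, a Krüppel-like transcription factor gene (0.152), *Coq10b*, a coenzyme Q carrier (0.153), *Mafk*, a small MAF transcription factor (0.162), *Pvr*, an adhesion receptor (0.163), and *Gm10658* (0.163). This likeness is a description with no test.

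Expected counts summed to between 19244227 and 19771802 per mouse, so that *Crtc3*, the member with the fewest reads, still had 214 or more counts in each mouse. Kidney identity was checked with nephron markers: the 5 proximal tubule genes summed to 2364.95 to 2846.18 TPM in controls and 1951.8 to 2427.24 TPM in treated mice. Markers of some other cell types differed by as much as the SIKs. Among 4 collecting duct genes, *Aqp2* was higher (log2 fold change 0.75, FDR = 0.000852, edgeR) and *Slc4a1* lower (−0.59, FDR = 0.000123), with a summed level of 94.9 to 154 TPM in controls and 95.95 to 204 TPM in treated mice. Of 2 stromal genes *Pdgfrb* was lower (−0.93, FDR = 5.39e-05, edgeR), with sums of 7.94 to 13.1 and 4.01 to 8.84 TPM. Of 4 immune genes 3 passed the filter, and *Cd79a* was lower (−1.75, FDR = 0.000627, edgeR) at low mean levels of 1.10 CPM in controls and 0.32 CPM in treated mice. *Ptprc* (−0.29) and *Lyz2* (0.06) were not called. All 4 immune genes together summed to 7.45 to 10.5 TPM in controls and 5.95 to 10.1 TPM in treated mice. With edgeR and with DESeq2, 0 of 5 proximal tubule, 0 of 2 thick ascending limb, 0 of 2 distal convoluted tubule, 0 of 3 endothelial and 0 of 4 red blood cell genes were called. Of these, 1 thick ascending limb and 1 endothelial gene had an unadjusted p under 0.05 in each, and limma on TPM called 1 proximal tubule gene lower. With limma on TPM, 3 of 5 proximal tubule genes and 1 of 3 endothelial genes were lower at an unadjusted p under 0.05. Beside 24.4% of all genes tested called in either direction with edgeR, 0 calls in lists of 2 to 5 genes do not show stable cell content. Of 6 adrenal cortex genes 1 passed the filter, *Cyp11b2* and *Cyp21a1* were at 0 in all mice, and the summed level was at most 0.62 TPM. The part of these cell markers in the SIK rise was not tested. Vehicle mouse 3 stood apart by gene length: its median deviation from the other controls was 0.21 (log2) over genes up to 1566 bases long and −0.20 over genes above 3673 bases, whereas the other 11 mice stayed between −0.10 and 0.10 in both. *Sik2* and *Sik3*, which were lowest in this mouse, had log2 fold changes of 0.56 and 0.44 without it.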

How the data were processed

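Per the labels, the authors' processing notes name FastQC, STAR 2.7.2b, RSEM 1.3.0, DESeq2 and the mm10 build, without role or order, and strand use is not given in the sources used here. The authors deposited 1 RSEM gene table per mouse with expected counts, which are not normalized, and TPM, scaled to effective length and library total. The deposited tables also hold FPKM, which was not used, mean transcript lengths in bases, and posterior SDs and intervals.

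Symbols and coordinates came from GENCODE M21 (54349 of 55401 identifiers matched with their version, 55141 with or without it). Expected counts were rounded, filtered with filterByExpr, scaled with TMM and tested with edgeR 4.0.16 (R 4.3.3) without a replicate block. Transcript length was tested with limma 3.58.1, and promoter windows came from RefSeq. The common biological coefficient of variation was 0.101. No pair of mice within a group looked like a duplicated library (lowest chi-square per degree of freedom 4.69 in 30 pairs). The steps were tested on simulated data. Members and lists were chosen with earlier results of these data known. Named were all members, listed genes with an FDR under 0.05 and a fold past 1.5 (at most 4 per list), overlapping genes and the 5 genes nearest to *Sik1*. Other genes were named after their values were seen. The result of 1 marker list is not reported here. Alternatives were RLE, library totals, DESeq2 1.42.0, other filters, unrounded counts, limma on log2(TPM + 1) and log2(TPM + 0.1), the replicate block and mice left out.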

Additional observations from a re-analysis of the deposited data

Results flagged for a closer look

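Of 48 groups of 6 mice tested with Dixon's criterion, 5 held a mouse set apart from the rest, where chance gives about 2.4. Vehicle mouse 3 accounted for 3 of them, with the highest control CPM of *Stk11* (52.1) and *Strada* (15.2) and the lowest control mean transcript length of *Sik3* (5255.7 bases). This is the mouse whose short genes stood above and whose long genes stood below the other controls, and the part of that shift in these values was not tested. SK-124 mouse 1 had the highest mean transcript length of *Strada* among treated mice (2111.5 bases). SK-124 mouse 5 had the highest *Crtc1* share of the CRTC TPM among treated mice (19.1%).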

How the results depend on the processing

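*Sik1*, *Sik2* and *Sik3* stayed higher at an FDR under 0.05 in all 23 alternatives each, with log2 fold changes of 0.59 to 0.88, 0.44 to 0.72 and 0.30 to 0.54, lowest on log2(TPM + 1), and the 6 other members gave 0 calls in any of them. Their signs were not fixed. *Stk11* was −0.054 with library totals, −0.11 on log2(TPM + 1) and −0.11 on log2(TPM + 0.1), scales on which the median of all genes was −0.12, −0.11 and −0.14. With SK-124 mice 1 to 3 only, *Strada* was 0.011, *Cab39* 0.0075, *Crtc1* 0.018 and *Crtc2* 0.054, and with mice 4 to 6 only *Crtc3* was 0.035. When 1 mouse at a time was left out, *Strada* ranged from −0.039 to 0.016, *Crtc2* from −0.047 to 0.013 and *Crtc3* from −0.086 to 0.030. The log2 length difference then ranged from −0.0035 to 0.0066 for *Sik1*, −0.027 to 0.0047 for *Sik2*, −0.0017 to 0.026 for *Sik3*, −0.0049 to 0.018 for *Strada*, −0.033 to 0.025 for *Cab39* and −0.14 to 0.0076 for *Crtc3*, with 0 members called. The causes of these sign changes were not tested. Counts without length scaling gave control shares of 12.5% for *Sik2*, 56.1% for *Sik3*, 23.0% for *Crtc1*, 59.7% for *Crtc2* and 17.3% for *Crtc3*. Same-numbered mice did not pair (2 of 6 correlations over 0.1, range −0.14 to 0.19, and 2 mice correlated best with their own number). With the replicate number as a block, the SIK log2 fold changes were 0.79, 0.66 and 0.49, with 3 members higher and 0 lower, and the block changed no other call among the members. For the gene lists, library totals, RLE and the fits without vehicle mouse 3 or 5 were added after the data were seen. With library totals, 1 of 10 LKB1-activated kinases and 1 of 7 14-3-3 genes were higher, and *Stradb* or *Cab39l* gave 1 lower call. 

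The distance from the middle to an end of RSEM's TPM interval within 1 mouse was taken relative to the TPM. Its median was 39.4% for *Crtc3* and 29.3% for *Crtc1*, and 8.2% (*Stk11*) to 15.5% (*Sik2*) for the other 7 members. TPM levels of *Crtc1* and *Crtc3* are thus the less precise ones. The intervals were not centred on the TPM. For *Crtc3*, vehicle mouse 1 had a TPM of 2.34 with an interval of 2.33 to 4.27. Vehicle mouse 4 had a TPM of 2.94, below its interval of 2.95 to 5.02. Whole-kidney RNA does not show in which cells the SIK mRNAs rose, and mRNA gives neither kinase activity nor the phosphorylation or location of the CRTCs.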
